A study of Rattus norvegicus with 6 samples.

Results

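The genes described here encode G protein-coupled receptors through which noradrenaline, adrenaline, acetylcholine and adenosine act on the heart. They are the alpha-1 adrenergic receptor genes Adra1a, Adra1b and Adra1d, the beta-1 adrenergic receptor gene Adrb1, the muscarinic receptor gene Chrm2, and the adenosine receptor genes Adora1, Adora2a and Adora2b. They were chosen by gene symbol, and all 8 were found among the 17089 genes of the deposited table. Ventricular myocytes of neonatal Sprague Dawley rats (postnatal day 1 to 3) were kept in primary culture, infected on the day they were isolated and harvested on day 4. Serum was 10% at first and 2% from day 3, and every library carried the label "unpace". The GFP group received Ad-GFP, an adenovirus with green fluorescent protein alone, and the Tbx18 group received Ad-Tbx18-IRES-GFP, which adds the T-box transcription factor Tbx18. All cultures thus carried an adenovirus and GFP, and each group had 3 libraries. Such cultures also hold non-myocytes, and in RNA from whole cultures fewer cells of a type and less RNA per cell cannot be told apart.

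These receptors divide by the G protein they engage. Alpha-1 receptors couple to Gq and phospholipase C, the beta-1 receptor and both A2-type adenosine receptors to Gs and adenylyl cyclase, and the muscarinic receptor of Chrm2 and the A1-type adenosine receptor to Gi, which lowers cyclic AMP and opens the acetylcholine-gated potassium channel. In the heart the beta-1 receptor raises rate and force, while the Gi-coupled muscarinic and adenosine receptors slow the sinus node. Tbx18 is known for turning ventricular myocytes toward pacemaker-like cells, and the comparison here asks how the transcripts of these receptors differed between Tbx18 and GFP cultures.

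The libraries held between 17074483 and 19800300 gene-assigned reads, recovered from the deposited values. Tbx18 itself was read at 268 to 312 normalized counts in GFP and at 5937 to 6236 in Tbx18, so each library matched its label. Normalized counts are read counts divided by the authors' size factor of the library, and values below are means ± SD over 3 libraries on that scale. Gene lengths were not used, so levels are compared between groups and not between genes. Changes are log2 fold changes, Tbx18 minus GFP, from limma fitted to log2(normalized count + 1) of 11230 genes averaging 10 counts or more, and a gene was called at a Benjamini-Hochberg adjusted p under 0.05. Whether replicates came from separate isolations is not stated, so p-values reflect no more than how far these libraries scatter, and that scatter may be technical.

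Of the 8 receptor genes, 7 passed the minimum mean and were tested, and Chrm2 did not. Called lower in Tbx18 were 4 of the 7, Adra1a, Adra1b, Adrb1 and Adora2a, against 23.5% of all genes tested. None was called higher by limma, against 22.5% of all genes, and 1, Adora1, was higher at an unadjusted p under 0.05. The edgeR and DESeq2 tests also called 0 members higher, with 1 and 0 at an unadjusted p under 0.05. The median log2 fold change of the 7 was -0.79, beside 0.01 for all genes. Tbx18 and GFP values were separate, without overlap, in 6 of the 7 and in 57.2% of all genes tested.

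**Figure D1:**
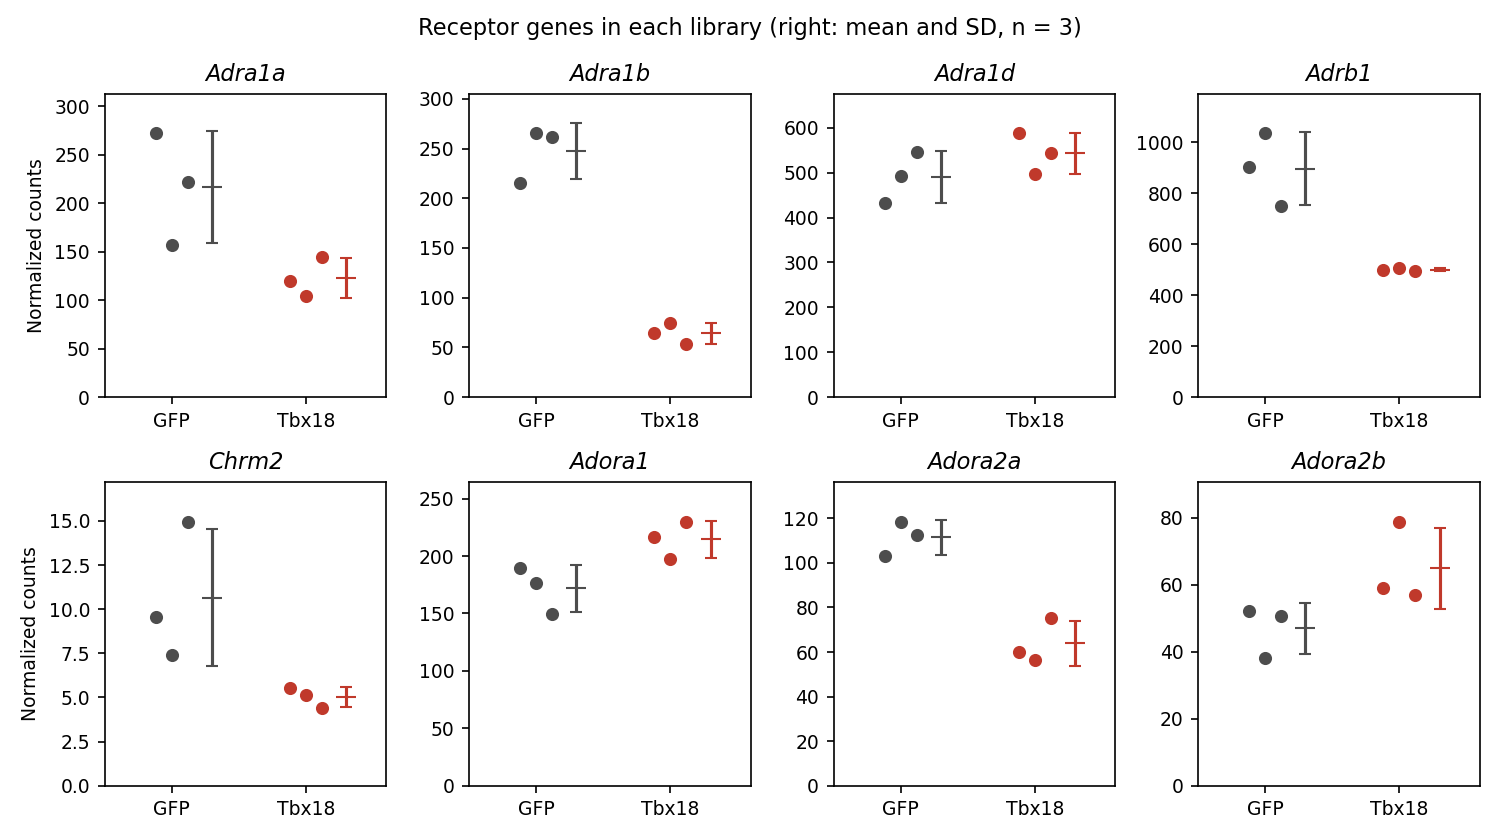
Normalized counts of the 8 receptor genes in each library (points), with mean and SD of 3 libraries to the right of each group; each panel has its own vertical axis from 0. Adra1a, Adra1b, Adrb1 and Adora2a lie lower in every Tbx18 library than in any GFP library, while the groups overlap for Adra1d.

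Among the alpha-1 receptors, Adra1b changed most. This receptor, like that of Adra1a, mediates the hypertrophic response of cardiac myocytes to noradrenaline. Adra1b was at 215, 266 and 261 counts in GFP cultures and at 64.4, 74.8 and 53.5 in Tbx18 cultures. All Tbx18 values were thus far below all GFP values. The means were 247 ± 28.1 and 64.3 ± 10.6, 3.85-fold apart, and the log2 fold change was -1.93 with an SE of 0.17 (limma adjusted p = 3.49e-05).

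Adra1a was at 272, 157 and 222 counts in GFP and at 120, 105 and 145 in Tbx18. The groups did not overlap, but GFP replicate 2 and Tbx18 replicate 3 were close. Its mean fell 1.76-fold from 217 ± 57.9 counts to 123 ± 20.4, a log2 fold change of -0.79 with an SE of 0.21 (limma adjusted p = 0.0130). This call was lost without Tbx18 replicate 2, where the log2 fold change was -0.68 with limma adjusted p = 0.0544.

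Adra1d, whose receptor is best known from vascular smooth muscle, was the alpha-1 gene that was not called. It was at 432, 493 and 547 counts in GFP and at 588, 497 and 543 in Tbx18. These values overlapped, with means of 490.4 ± 57.4 and 543 ± 45.6. Its log2 fold change was 0.15 with a 95% interval from -0.12 to 0.41 (limma adjusted p = 0.325). With 1 library left out it was lowest, at 0.06, when GFP replicate 1 was dropped and highest, at 0.23, when GFP replicate 3 was dropped.

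The 3 alpha-1 genes together were at 955 ± 65.1 counts in GFP and 730.1 ± 49.1 in Tbx18. Adra1d made up 51.3% ± 3.75 of these counts in GFP and 74.3% ± 1.62 in Tbx18. The share of Adra1b went from 25.9% ± 2.86 to 8.87% ± 1.98, and that of Adra1a from 22.8% ± 6.33 to 16.8% ± 2.34. The difference in the Adra1a share was -5.95 percentage points, and -2.53 without GFP replicate 1. The shares of Adra1b and Adra1d did not overlap between the groups, whereas GFP replicate 2 had 17.1% Adra1a and Tbx18 replicate 3 had 19.5%. These are shares of reads, which also depend on transcript length.

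**Figure D2:**
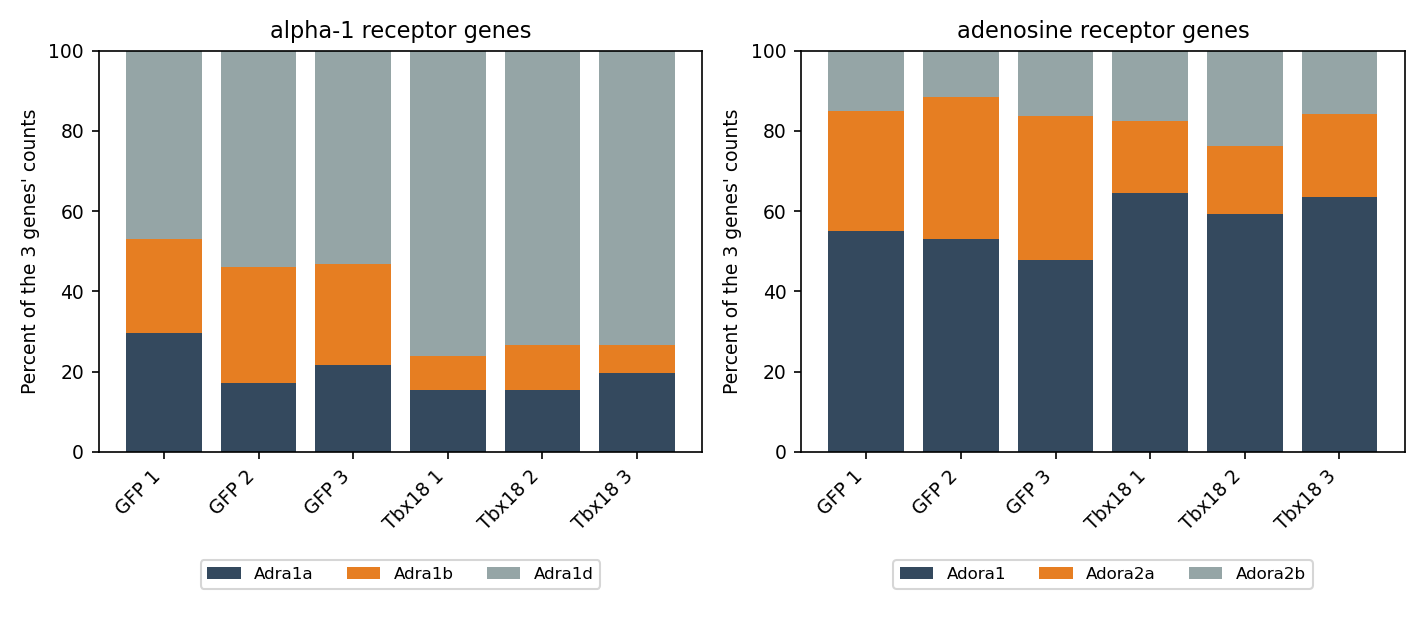
Share of each gene in the summed normalized counts of the 3 alpha-1 receptor genes (left) and the 3 adenosine receptor genes (right), in percent, with 1 bar per library. Adra1d takes 73.3 to 76.2% of the alpha-1 counts in the Tbx18 libraries and 47.0 to 53.8% in GFP, and Adora2a takes 16.9 to 20.8% of the adenosine receptor counts in Tbx18 and 29.9 to 36.0% in GFP.

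The ratio of 2 genes within a library does not depend on how libraries are scaled. Ratios are given as means over libraries, and their changes on the log2(normalized count + 1) scale. The counts of Adra1b were 0.50 ± 0.03 of those of Adra1d in GFP and 0.12 ± 0.03 in Tbx18, a change in log2 ratio of -2.08. The ratio of Adra1a to Adra1d changed by -0.94, and that of Adra1a to Adra1b by 1.14. None of these 3 ratios overlapped between groups. How often ratios of other gene pairs overlap was not computed, here or for the ratios below. For each, a two-sided exact permutation test over the libraries gave p = 0.1, the smallest that 3 against 3 libraries allow, or 0.125 after Benjamini-Hochberg adjustment over the 10 pairs compared.

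The stretches just before the transcript starts are shown for 3 of these genes, because Adra1b fell, Adra1d did not pass the test and Adrb1, described next, fell as well. RefSeq sequences of the rat build GRCr8 were matched by symbol for 6 of the 8 receptor genes. Adra1a and Adora2a, both called lower, had no match and were not searched. Each line gives 250 bases up to the start, 5′ to 3′ on the strand of the gene. They lie at chr10:28814348-28814597 (minus strand) for Adra1b, within the span of longer transcripts of that gene, at chr3:139262332-139262581 (minus strand) for Adra1d and at chr1:265776853-265777102 (plus strand) for Adrb1. Capitals mark the letters CCAAT and TGACG on either strand.
Adra1b: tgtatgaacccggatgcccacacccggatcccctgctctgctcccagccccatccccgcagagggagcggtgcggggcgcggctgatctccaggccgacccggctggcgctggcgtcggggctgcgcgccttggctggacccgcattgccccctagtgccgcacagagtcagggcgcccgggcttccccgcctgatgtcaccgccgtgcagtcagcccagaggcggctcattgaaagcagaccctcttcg
Adra1d: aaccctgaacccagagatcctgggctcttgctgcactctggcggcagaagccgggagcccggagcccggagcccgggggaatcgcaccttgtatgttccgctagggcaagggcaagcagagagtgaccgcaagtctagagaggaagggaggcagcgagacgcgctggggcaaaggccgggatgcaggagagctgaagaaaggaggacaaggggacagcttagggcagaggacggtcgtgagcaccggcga
Adrb1: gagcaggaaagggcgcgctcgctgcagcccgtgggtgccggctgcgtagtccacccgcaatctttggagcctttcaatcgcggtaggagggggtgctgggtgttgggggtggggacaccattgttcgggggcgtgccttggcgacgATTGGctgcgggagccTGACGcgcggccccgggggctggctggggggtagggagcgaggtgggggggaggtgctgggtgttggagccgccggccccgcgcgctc

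All 3 stretches were rich in G and C, with 70.8% for Adra1b, 64% for Adra1d and 72% for Adrb1, beside a median of 52% over 27457 genes. Matches to 6 motifs were searched on both strands. CCAAT was present in 2 of the 6 receptor genes, Adrb1 and Adora2b, and in 34.3% of all genes. TGACG, the core of the cyclic AMP response element, was present in Adrb1 and in 19.0% of all genes. The full element TGACGTCA, which contains that core, and TATAAA were in 0 of the 6 and in 1.70% and 13.1% of all genes, and GGGCGG was in Chrm2 and Adora2b and in 32.4%. The T-box letters AGGTGTGA were present in 0.958% of all genes and in 1 of the 6 receptor genes, Adora1. A match is a run of letters and shows no binding.

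Adrb1, the main receptor for noradrenaline in cardiac myocytes, was at 903, 1036 and 750.2 counts in GFP and at 497, 506 and 495 in Tbx18. Every Tbx18 library lay below every GFP library, and the Tbx18 libraries differed little among themselves. Mean counts fell 1.80-fold from 897 ± 143 to 499 ± 5.92, and the log2 fold change was -0.83 with an SE of 0.12 (limma adjusted p = 0.000476). The call of Adrb1 held under all 17 alternatives, with limma, edgeR or DESeq2 adjusted p from 2.32e-08 to 0.00392. Counts of Adrb1 were 3.66 ± 0.70 times those of Adra1b in GFP and 7.91 ± 1.25 times in Tbx18, without overlap (exact permutation p = 0.1, n = 3 libraries a group).

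Chrm2 encodes the muscarinic receptor through which vagal acetylcholine slows the heart, and it was barely read. Between 5 and 13 reads fell on it per library. Its normalized counts were 9.57, 7.41 and 15.0 in GFP and 5.52, 5.12 and 4.39 in Tbx18. All Tbx18 values were below all GFP values, with means of 10.6 ± 3.89 and 5.01 ± 0.58. The difference of its log2 values was -0.91, and with no filter on low values it missed the threshold (limma adjusted p = 0.0727). The ratio of Adrb1 to Chrm2 overlapped between groups, at 94.8 ± 44.8 in GFP and 100.5 ± 11.5 in Tbx18 (exact permutation p = 0.9). Its log2 change was 0.08 and ran from -0.30 to 0.40 when 1 library was left out, the lowest without GFP replicate 3, so a difference was not detectable at this depth.

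Of the adenosine receptor genes, Adora2a was called lower, and Adora1 and Adora2b were not called. Adora2a, whose Gs-coupled receptor widens coronary vessels and restrains leukocytes, was at 103, 119 and 113 counts in GFP and at 59.8, 56.4 and 75.5 in Tbx18. The groups lay clearly apart. Its mean was 112 ± 7.76 in GFP and 63.9 ± 10.2 in Tbx18, 1.75-fold lower, with a log2 fold change of -0.80 and an SE of 0.18 (limma adjusted p = 0.00504). The call of Adora2a also held under all 17 alternatives.

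Adora1, whose Gi-coupled receptor mediates the slowing of the sinus and atrioventricular nodes by adenosine, was at 189, 177 and 150 counts in GFP and at 216, 198 and 230.0 in Tbx18. Every Tbx18 library was above every GFP library, though GFP replicate 1 and Tbx18 replicate 2 were close. The means were 172 ± 20.3 and 215 ± 16.2, with a log2 fold change of 0.32 and a 95% interval from 0.01 to 0.64, and the gene was not called (limma adjusted p = 0.0850). Without GFP replicate 1 it was called, at 0.40 with limma adjusted p = 0.0439.

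Upstream of Adora1 the only T-box match among the 6 receptor genes searched is shown with its surroundings, as 30 bases at chr13:48247042-48247071 of GRCr8 (minus strand), 5′ to 3′ on the strand of the gene. Capitals mark the reverse complement of AGGTGTGA, which begins 229 bases before the start given by RefSeq.
Adora1: tgggagccaccTCACACCTgatacaaaagc

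Adora2b, a Gs-coupled receptor of lower affinity for adenosine, was at 52.1, 38.3 and 50.6 counts in GFP and at 58.9, 78.9 and 57.1 in Tbx18. Every Tbx18 library was above every GFP library, by little for GFP replicate 1 and Tbx18 replicate 3. Its means were 47.0 ± 7.60 and 65.0 ± 12.1, with a log2 fold change of 0.46 and a 95% interval from -0.04 to 0.95 (limma adjusted p = 0.121). After quantile normalization the log2 fold change of Adora2b was -0.00149 (limma adjusted p = 0.996), so the size of its change depended on the scaling.

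Summed over the 3 adenosine receptor genes, the counts were 330.4 ± 16.1 in GFP and 344 ± 16.5 in Tbx18, and their composition differed. Adora2a took 33.8% ± 3.39 in GFP and 18.5% ± 2.04 in Tbx18, and Adora1 51.9% ± 3.69 and 62.5% ± 2.72. Adora1 had 1.55 ± 0.26 times the counts of Adora2a in GFP and 3.39 ± 0.30 times in Tbx18, a change in log2 ratio of 1.13 without overlap. The ratio of Adora2a to Adora2b went from 2.43 ± 0.59 to 1.02 ± 0.30, also without overlap. Both gave exact permutation p = 0.1 (0.125 adjusted over the 10 pairs). The ratio of Adora1 to Adora2b overlapped, at 3.73 ± 0.83 and 3.40 ± 0.80 (exact permutation p = 0.7).

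Adrb1 was also set against Adora1, whose receptor has the opposite effect on rate, and Chrm2 against Adora1, whose receptors both slow it. The counts of Adrb1 were 4.77, 5.87 and 5.02 times those of Adora1 in GFP and 2.30, 2.56 and 2.15 times in Tbx18. This was the stimulating against the slowing receptor, and its log2 ratio changed by -1.15 with no overlap. For Chrm2 against Adora1 the log2 ratio changed by -1.23, on the few reads of Chrm2. Each gave exact permutation p = 0.1.

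**Figure D3:**
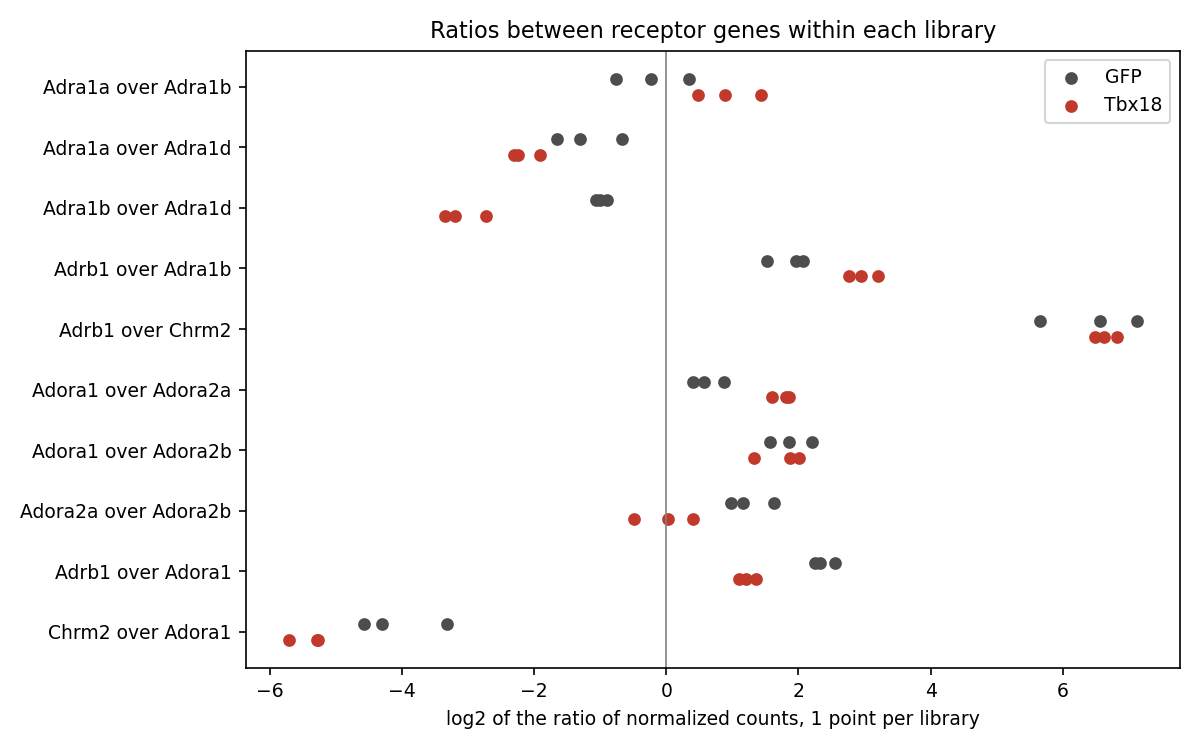
Log2 of the ratio of normalized counts of 2 receptor genes in each library, for 10 pairs (3 GFP and 3 Tbx18 points a pair). The groups lie farthest apart for Adra1b over Adra1d, with a change of -2.08, and overlap for Adrb1 over Chrm2 and Adora1 over Adora2b.

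The scaling of libraries bears on the smaller changes. With libraries scaled to equal recovered reads in place of the authors' size factors, all genes together had a median log2 fold change of 0.27, and 12.0% of genes were called lower and 42.5% higher. On that scale 3 members were called lower and 3 higher. Adra1b, Adrb1 and Adora2a were lower at -1.67, -0.57 and -0.54. Adra1a was at -0.53 and no longer called (limma adjusted p = 0.0760). Adra1d, Adora1 and Adora2b were called higher, at 0.41, 0.59 and 0.71. The common shift of 0.27 is part of each of these values. Upper-quartile scaling moved the median of all genes to 0.10 and called Adora1 higher at 0.42 (limma adjusted p = 0.0342), whereas after quantile normalization Adora1 was at 0.17 and not called (limma adjusted p = 0.314).

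**Figure D4:**
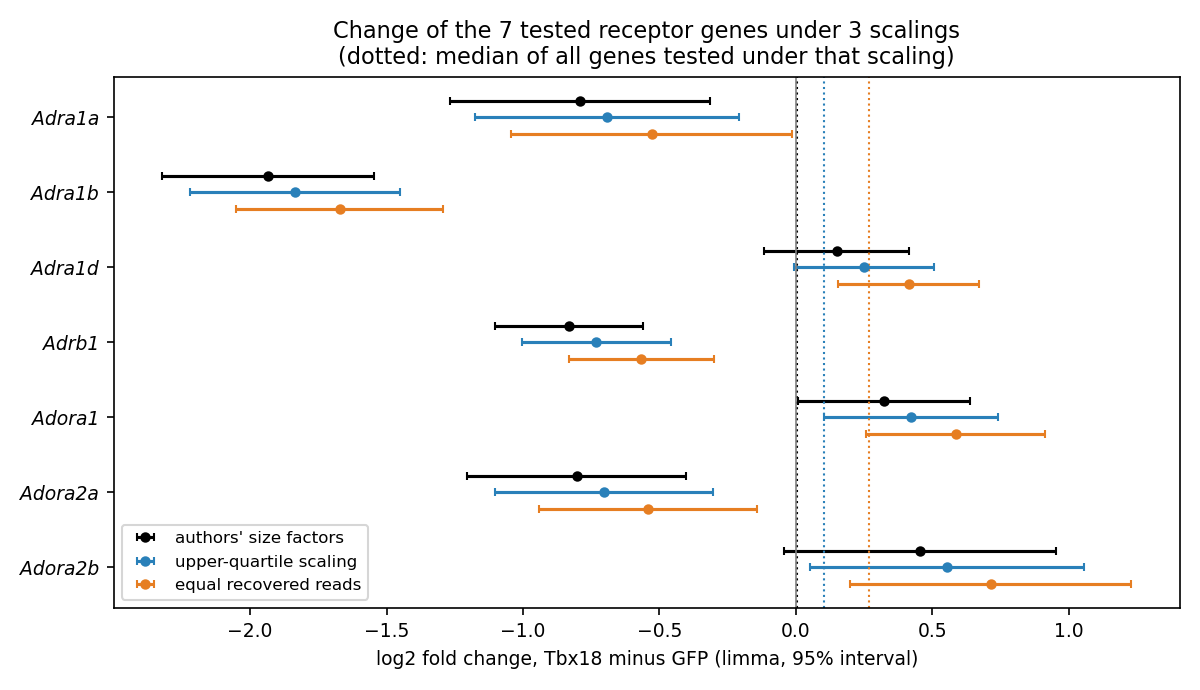
Log2 fold change, Tbx18 minus GFP, with 95% limma interval for the 7 tested receptor genes under 3 library scalings; dotted lines mark the median of all genes tested under each. Adra1b lies between -1.93 and -1.67 under all 3, whereas Adra1d, Adora1 and Adora2b move from not called to called with equal recovered reads.

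By their profile over the 6 libraries the called members resembled the following genes, among 9961 candidates with a mean of at least 50. Likeness was the root mean square difference of log2 values after each gene was centred on its mean, so a small value means that 2 genes changed alike in every library. Adra1b lay closest to Gcom1 at 0.097 and Tmem179 at 0.102, and Adrb1 to LOC302022 at 0.060 and Timm8a1 at 0.064. Adra1a lay closest to Svil at 0.109, which encodes the actin-binding supervillin, and to the phosphodiesterase gene Pde4d at 0.111. Adora2a lay closest to Trip10 at 0.049 and the chaperone gene Dnaja4 at 0.065. Within the receptor genes the closest pair was Adrb1 and Adora2a at 0.188, and the most distant Adra1b and Adora2b at 1.22.

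The remaining receptors for these ligands were mostly rare. Of 10 genes, 5 were tested, 2 rose and 3 did not pass the test. For this list and those below, the shares over all genes tested were 22.5% called higher and 23.5% lower. With equal recovered reads these shares were 42.5% and 12.0%. Chrm3, a Gq-coupled muscarinic receptor gene named after its values were seen, was at 4.68 ± 2.36 and 17.9 ± 7.53 counts (log2 fold change 1.71, limma adjusted p = 0.0169). Chrm3 averaged 11.3 over all libraries and passed the minimum mean of 10 only through Tbx18, so no conclusion is drawn from its call. It was not called without Tbx18 replicate 2, without Tbx18 replicate 3 or after quantile normalization. With Tbx18 replicate 2 or replicate 3 left out, 0 of the 5 were called higher. Adra2c and Adora3 were at 0 in every library.

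Signalling genes below the receptors moved both ways, as did all genes tested, of which 22.5% were called higher and 23.5% lower. Of 15 Gq and phospholipase C genes, 9 rose and 3 fell, with a median log2 fold change of 0.51. The inositol trisphosphate receptor gene Itpr1 rose by 0.89 and Prkd1, protein kinase D, by 0.81. With equal recovered reads 10 rose and 1 fell.

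Of 24 Gs and cyclic AMP genes, 6 rose and 8 fell, with a median of -0.09. That median was 0.01 after upper-quartile scaling, beside 0.10 for all genes. Scaled to equal recovered reads it was 0.18, beside 0.27 for all genes. On that scale 10 of the 24 genes rose and 4 fell, beside 42.5% and 12.0% of all genes. Rapgef3, the cyclic AMP sensor Epac, rose from 66.0 ± 8.38 to 200.1 ± 11.6 (log2 fold change 1.59), and Prkar1b, a regulatory subunit of protein kinase A, by 1.20. Pde2a, a phosphodiesterase stimulated by cyclic GMP, fell from 1153 ± 93.7 to 413 ± 11.6 (-1.48).

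In the Gi and Go list, 1 of 10 rose and 2 fell, with a median of 0.13. Kcnj5, which forms the potassium channel that acetylcholine opens, fell from 118 ± 7.77 to 48.9 ± 4.82 (log2 fold change -1.26), while its partner Kcnj3 was at 92.9 ± 13.4 and 101 ± 9.22 and was not called. Gnao1, the Go alpha subunit, fell by 0.84. Gnai2, a Gi alpha subunit, was called higher at 0.27, a call lost without GFP replicate 3 or any 1 Tbx18 library, where limma called 0 genes of the list higher. With upper-quartile scaling or quantile normalization 4 rose, where 3255 and 2527 of all 11230 genes were called higher. With equal recovered reads 6 rose, where 42.5% of all genes were called higher. Without GFP replicate 1 or GFP replicate 2, 2 rose.

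Among 14 genes that end receptor signals, 6 rose and 3 fell, with a median of 0.36. Rgs3 and Rgs5, which speed the shut-off of G proteins, rose by 0.87 and 0.83. Rgs6, the regulator that shortens parasympathetic signalling in the sinus node, fell from 130 ± 52.2 to 49.2 ± 7.91 (log2 fold change -1.32). The gene of the beta-adrenergic receptor kinase, Adrbk1, was at 1124 ± 70.9 and 1134 ± 44.3 and was not called.

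Of 11 genes whose products beta-adrenergic signalling acts on in the myocyte, 8 fell and 2 rose, with a median of -0.88. This list shares genes with the cardiomyocyte markers given below, so the counts of the lists are not separate observations. Pln, phospholamban, fell by 2.09 and Mybpc3, cardiac myosin-binding protein C, by 1.29. The cyclic AMP-gated pacemaker channel gene Hcn4 rose by 2.65, whereas Hcn2, of the same channel family, fell by 1.06. These counts were the same under upper-quartile, quantile and equal-read scaling.

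Genes that make or clear the ligands were also read. In the catecholamine list, 3 of 5 tested genes fell. Dbh, which makes noradrenaline from dopamine, fell from 364 ± 24.8 to 36.6 ± 10.8 (log2 fold change -3.32), and Ddc, which makes dopamine, fell by 2.40. The breakdown enzyme gene Maoa had a log2 fold change of -0.997 and was called lower. Th, the first enzyme of the route, was at 3.48 ± 3.16 and 3.34 ± 2.01 counts and not tested.

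Ache, which splits acetylcholine, rose by 1.20 on the log2 scale, with 376 ± 21.3 counts in GFP and 866 ± 5.90 in Tbx18 (limma adjusted p = 1.52e-05). It was 1 of 2 tested genes of acetylcholine supply and breakdown. Of 10 tested adenosine genes, 5 rose and 3 fell. Alpl, tissue-nonspecific alkaline phosphatase, rose from 6.93 ± 1.43 to 133 ± 12.0 (4.09), Ada, adenosine deaminase, by 1.11, and Pnp, purine nucleoside phosphorylase, by 0.76. Alpl passed the minimum mean of 10 for testing, and that of 50 for naming, only through its Tbx18 values. With equal recovered reads the 3 falls in this list were not called.

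**Figure D5:**
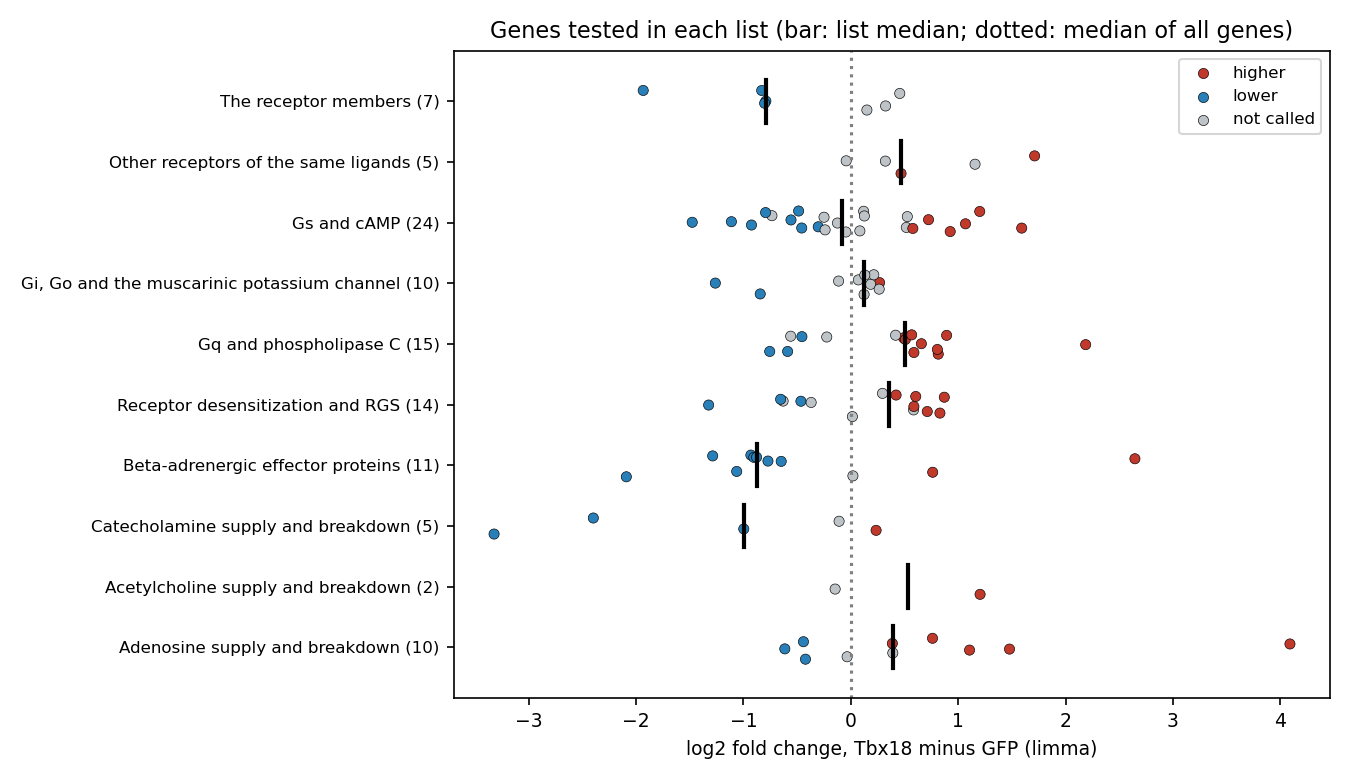
Log2 fold change, Tbx18 minus GFP, of each tested gene in the receptor set and in 9 lists of related genes (red called higher, blue called lower, grey not called; vertical positions within a list are arbitrary). List medians (black bars) run from -0.997 for catecholamine genes to 0.53 for acetylcholine genes, with the median of all genes at 0.01 (dotted).

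Markers of cell types moved in the same libraries as the receptor genes. Of 7 cardiomyocyte markers 6 fell, and their summed counts were 541950 to 603934 in GFP and 341376 to 358010 in Tbx18. Of 8 fibroblast markers 7 rose, with sums of 239314 to 278871 and 514008 to 597956. Among smooth muscle and pericyte markers 4 of 8 rose and 1 fell (51819 to 86574 and 80746 to 91465), and among endothelial markers 5 of 8 rose and 1 fell (1488 to 2271 and 2170 to 2246). Macrophage and leukocyte markers, of which 2 of 8 rose, summed to 1019 to 1731 and 1188 to 1569. Their median log2 fold change was 0.41, but -0.00195 after quantile normalization, where 1 rose, and 4 rose with equal recovered reads. Of 4 epicardial and mesothelial markers 3 rose (237 to 273 and 423 to 506). Of 3 tested Schwann cell markers 1 rose (135 to 155 and 172 to 189), and their median turned from 0.26 to -0.04 after quantile normalization. Of 5 tested sympathetic neuron markers 3 rose and 1, Dbh, fell (1176 to 1265 and 1504 to 1597). Slc18a2 was not called, at 160 ± 8.08 counts in GFP and 148 ± 12.4 in Tbx18. Th and Phox2a, near or at 0, were below the minimum mean. The medians of the cardiomyocyte and fibroblast markers, -0.77 and 1.26, kept their sign and the counts were the same under upper-quartile, quantile and equal-read scaling. No marker was at 0 in all 6 libraries. The part of these shifts in the receptor changes was not tested.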

How the data were processed

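The authors deposited, by the name of the table, DESeq2-normalized counts for 3 GFP and 3 Tbx18 libraries, a signal made by dividing gene read counts by 1 size factor per library. DESeq2 1.10.1, HTSeq, STAR 2.4.0g1 and bcl2fastq 2.17.1.14 are listed, with no role, in the submitters' processing notes. The genome build was not given in the sources used here, nor were the annotation and strand setting, so reads of overlapping genes cannot be separated. All deposited values were whole multiples of a column's smallest step within 0.01, which gave the read counts.

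Groups were compared with limma 3.58.1 (intensity trend, no block) in R 4.3.3, and ratios of members with exact permutation tests over libraries. Alternatives were 2 pseudocounts (0.5 and 10), 2 filters, 3 scalings, no trend, a replicate block, DESeq2 1.42.0 or edgeR 4.0.16 on the recovered reads, and leaving out each library. The fit was tested on simulated data. Named were all members, up to 3 called genes per list with the largest change and a mean of at least 50, and the 2 genes most like each called member. Chrm3, Kcnj3, Adrbk1, Hcn2, Slc18a2, Th and Phox2a were named after their values were seen. Members and lists were chosen with earlier results of these data known. Symbols Grk2, Grk3 and Adgre1 were matched under older names. Some results that the naming rule would include are not reported here.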

Additional observations from a re-analysis of the deposited data

How the results depend on the processing

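Adra1b, Adrb1 and Adora2a kept their direction and their call under all 17 alternatives. Of 130 values of members under alternatives, 121 kept their direction and side of the threshold, or for the untested Chrm2 stayed within 1 SD. The number of members called lower stayed within 1.5 times of 4 under every alternative. The number called higher was 0, or 1 with upper-quartile scaling, 3 with equal recovered reads and 0 to 1 with 1 library left out. With equal recovered reads Adra1a was not called (-0.53), and Adra1d (0.41), Adora1 (0.59) and Adora2b (0.71) were called. Upper-quartile scaling also called Adora1 (0.42), while quantile normalization lowered it to 0.17 and left almost no change in Adora2b (-0.00149). With 1 library left out the log2 fold change ran from -1.01 to -0.61 for Adra1a, where the call was lost without Tbx18 replicate 2 (-0.68), and from 0.23 to 0.40 for Adora1. The difference of Chrm2 was -0.44 with a pseudocount of 10. The change in the log2 ratio of Adrb1 to Chrm2 was 0.08, and it turned to -0.38 with a pseudocount of 10 and to -0.30 without GFP replicate 3, with a range of -0.30 to 0.40 over the libraries left out. That of Adora1 to Adora2b was -0.13, and it turned to 0.0292 without GFP replicate 2 and to 0.0715 without Tbx18 replicate 2, with a range of -0.29 to 0.0715 over the libraries left out. The cause of these changes was not tested. Of 180 list counts under alternatives, 154 stayed within 1.5 times. Same-numbered libraries did not deviate together (correlations of -0.005, 0.15 and 0.02 across genes), and not every library correlated best with its own number. With the replicate number as a block, 4 members were called lower and 0 higher, so the replicate block changed no call of a member; 1 of the other receptors was called in place of 2. Chrm2 fails the minimum mean, so edgeR, DESeq2, the block, quantile normalization, the fit without a trend and the filter of 50 gave no value for it. For Chrm2 the depth of 5 to 13 reads limits what can be shown.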
